A study of Saccharomyces cerevisiae with 15 samples.

Results

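The genes described here are GCN4 and 58 genes for enzymes of amino acid synthesis in budding yeast (Saccharomyces cerevisiae). They were chosen by name, by their known place in a synthesis pathway, with earlier results of these data known. All 59 were measured, each by 1 probe set, among 5449 genes tested. They fall into GCN4 itself and 11 pathway groups: arginine, histidine, leucine, isoleucine and valine, lysine, the aromatic amino acids, serine and glycine, threonine, sulphur amino acids, asparagine and proline.

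RNA was measured on 15 one-colour Affymetrix arrays in strains with mutations in RNA polymerase II, the enzyme that transcribes protein-coding genes. WT1B is wild type of mating type α, and rpb1-1 and rpb1S751F carry mutations of the same α background in the largest subunit of the enzyme, encoded by RPO21. WT1A is wild type of mating type a, and rpb2-10 carries a mutation of that background in the second largest subunit, encoded by RPB2. Each of the 5 groups has 3 arrays, labelled biological replicates, from cultures in mid-log phase in rich medium, for which no temperature is given (YPAD in the growth protocol, YPD in the design text). The wild types bear W303 strain names, and all 5 strains, wild types included, carry RAD5 and mutant marker alleles of ade2, can1, his3, leu2, trp1 and ura3. The histidine, leucine and tryptophan pathways therefore carry a mutation in every strain, in HIS3, LEU2 and TRP1, which are not among the 59 genes. Each mutation is present in 1 strain, so a difference from the wild type may include other differences of that strain.

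Values are log2 expression levels as deposited, and a difference of 1 is a change of 2 times. The α and a arrays have separate scales, with median levels of the tested genes of 10.04 to 10.09 and of 7.75 to 7.83. Every comparison with a wild type therefore stays within a mating type. Errors of differences are standard errors (SE) from a limma fit with n = 3 arrays per group. A gene is said to have risen or fallen where the adjusted p of that fit was below 0.05 over the 5449 genes. Of the tested genes, 53.8% did so in rpb1-1, 54.6% in rpb1S751F and 71.2% in rpb2-10, and array values show a level relative to other genes, not an amount per cell. The 59 genes lay above the 95th percentile of probe sets for another species on all 15 arrays. Mating-type genes checked the labels: STE2, the gene of the α-factor receptor of a cells, relative to the array median, averaged 2.87 in WT1A and 3.49 in rpb2-10 against -3.16 in WT1B, -3.64 in rpb1-1 and -2.65 in rpb1S751F. The α-cell gene MF(ALPHA)1 averaged -5.98 and -6.0 in the a strains and 3.61, 2.34 and 2.83 in the α strains. All 5 α-cell genes checked fell in rpb1-1, 3 fell in rpb1S751F, and 1 fell and 1 rose in rpb2-10. Of 7 a-cell genes, 2 rose and 2 fell in rpb1-1, 5 rose and 1 fell in rpb1S751F, and 3 rose and 1 fell in rpb2-10. STE3, the gene of the a-factor receptor of α cells, was at -1.82 in rpb1-1 against 1.95 in WT1B, -3.85 in WT1A and -2.19 in rpb2-10. The α-cell gene SAG1 was at -1.07 in rpb1-1 against 1.69 in WT1B, -1.03 in WT1A and -1.01 in rpb2-10. Unlike MF(ALPHA)1, SAG1 thus did not set rpb1-1 apart from the a strains. The part of these shifts in the results for the synthesis genes was not tested.

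Yeast makes all its amino acids, and many of the enzymes share 1 activator, the transcription factor Gcn4. Gcn4 protein is held low in amino acid-rich cells by upstream open reading frames that limit translation of its mRNA, and it rises on starvation when uncharged tRNA activates the kinase Gcn2. Most pathways also have a regulator or a feedback signal of their own, such as Leu3 for the leucine branch, Lys14 for lysine and Met4 for sulphur.

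The synthesis genes fell more often than they rose in rpb1-1 and in rpb2-10, while in rpb1S751F more rose than fell. In rpb1-1, 29 of the 59 fell, or 49.2%, where 25.7% of all tested genes did, and 9 rose, or 15.3% against 28.1%. In rpb2-10, 35 fell, or 59.3% against 39.1% of all genes, and 9 rose, or 15.3% against 32.0%. In rpb1S751F, 22 rose, or 37.3%, near the 31.1% of all genes, and 11 fell, or 18.6% against 23.5%. Counts for single pathways are to be read against the same shares of all genes. The median difference over the 59 genes was -0.31 in rpb1-1, 0.10 in rpb1S751F and -0.27 in rpb2-10, where the medians over all tested genes were -0.01, 0.04 and -0.05. ARG3, THR1 and PRO1 were the genes with no call in any mutant, or 5.08% of the 59 against 9.58% of all tested genes.

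**Figure D1:**
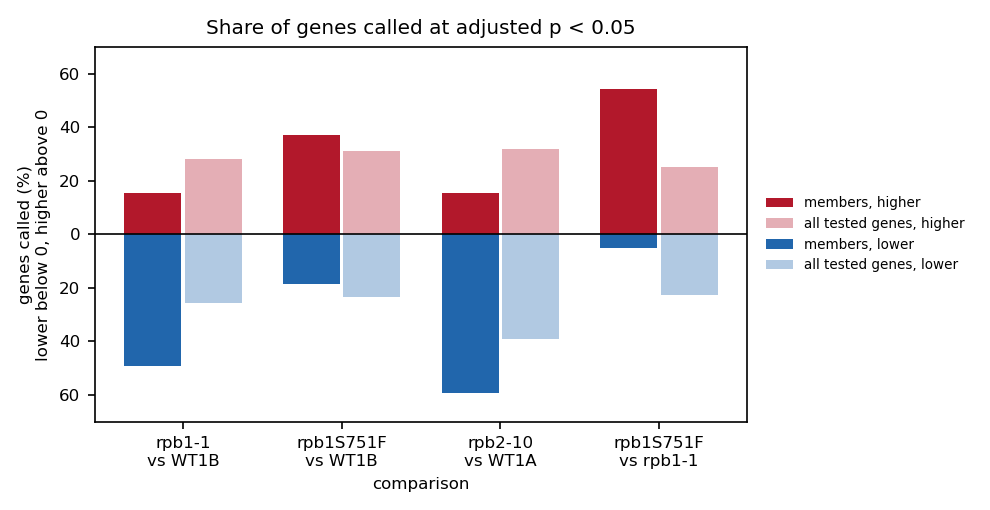
Percentage of genes called at an adjusted p below 0.05 (y axis, higher above 0 and lower below 0) in 4 comparisons, for the 59 synthesis genes (dark bars) and all 5449 tested genes (pale bars). The synthesis genes stand below the tested genes in share of higher calls in rpb1-1 and rpb2-10, and above them for rpb1S751F against rpb1-1.

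Large changes were few. A call with a difference of at least 1 was reached by 6 of the 59 genes in rpb1-1 (10.2%, against 11.4% of all genes), by 2 in rpb1S751F (3.39% against 11.2%) and by 5 in rpb2-10 (8.47% against 6.46%). The 3 mutant arrays lay wholly on 1 side of the 3 wild-type arrays for 43 genes in rpb1-1 (72.9% against 63.2%), 42 in rpb1S751F (71.2% against 62.5%) and 44 in rpb2-10 (74.6% against 76.1%). Taken array by array, the median difference of the 59 genes from the mean of the wild type was -0.28, -0.31 and -0.35 on the rpb1-1 arrays and -0.32, -0.31 and -0.18 on the rpb2-10 arrays. On the rpb1S751F arrays it was 0.20, 0.05 and 0.07, so that 1 of these arrays stood higher than the other two.

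**Figure D2:**
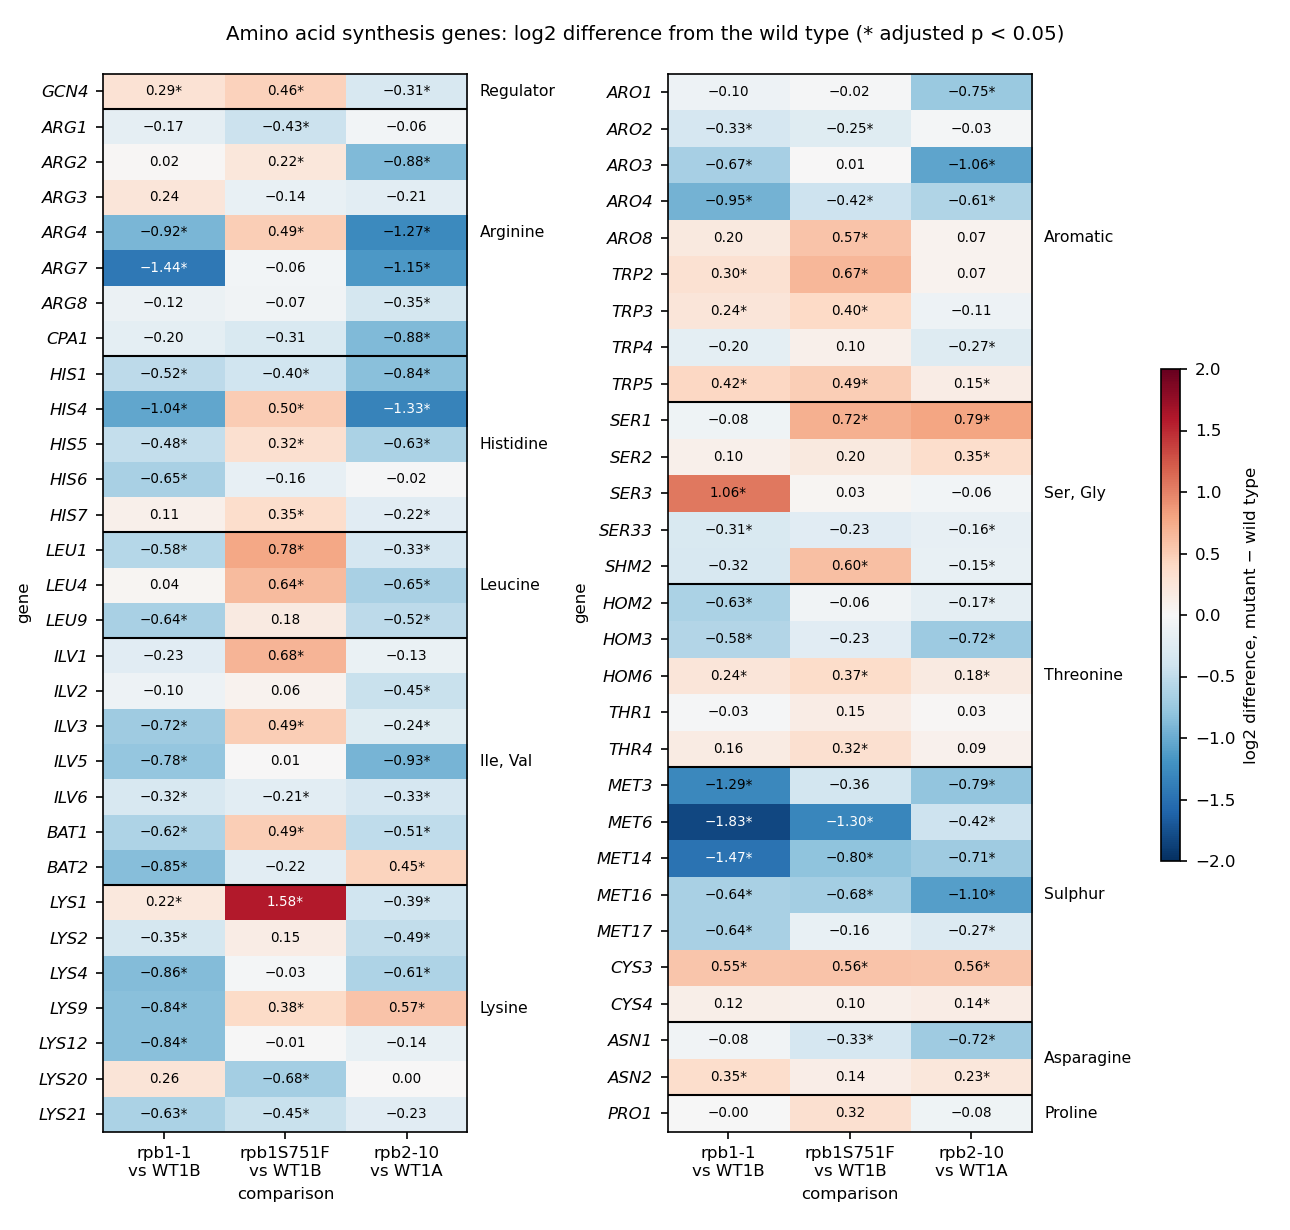
Log2 difference from the own wild type for each of the 59 genes (rows, by pathway) in rpb1-1, rpb1S751F and rpb2-10 (columns), with red for higher, blue for lower and an asterisk for an adjusted p below 0.05. LYS1 in rpb1S751F, at 1.58, and MET6 in rpb1-1, at -1.83, are the extremes.

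GCN4 (YEL009C) mRNA rose in both rpb1 mutants and fell in rpb2-10. Its levels were 13.81, 13.92 and 13.93 in WT1B, 14.20, 14.21 and 14.13 in rpb1-1 and 14.37, 14.32 and 14.35 in rpb1S751F. In the a strains they were 12.06, 12.06 and 12.00 in WT1A against 11.69, 11.73 and 11.77 in rpb2-10. No mutant array overlapped its wild type. The differences were 0.29 ± 0.06 in rpb1-1 (adjusted p = 0.00425), 0.46 ± 0.06 in rpb1S751F (adjusted p = 0.000404) and -0.31 ± 0.05 in rpb2-10 (adjusted p = 0.000382). These are mRNA levels, and the amount of Gcn4 protein was not measured. In rpb1-1 the mRNA of the activator thus rose while 29 enzyme genes fell.

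Arginine is made from glutamate through acetylated intermediates to ornithine, and then through citrulline and argininosuccinate. In rpb1-1 the ornithine acetyltransferase gene ARG7 and the argininosuccinate lyase gene ARG4 fell, and the other 5 of the 7 genes were not called. ARG4 (YHR018C) read 11.74, 11.82 and 12.03 in WT1B, 11.07, 11.02 and 10.75 in rpb1-1 and 12.31, 12.33 and 12.41 in rpb1S751F. It was therefore lower than every wild-type array in rpb1-1 and higher in rpb1S751F, with differences of -0.92 ± 0.11 (adjusted p = 0.000146) and 0.49 ± 0.11 (adjusted p = 0.00475). In rpb2-10 it read 9.04, 8.97 and 8.98 against 10.36, 10.38 and 10.06 in WT1A, a difference of -1.27 ± 0.08 (adjusted p = 3.03e-06).

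ARG7 (YMR062C) fell from 11.22, 11.30 and 11.29 in WT1B to 10.16, 9.73 and 9.63 in rpb1-1, a difference of -1.44 ± 0.13, or 2.71-fold (adjusted p = 3.04e-05). In rpb1S751F it read 11.16, 11.22 and 11.28, overlapping the wild type, at -0.06 ± 0.13, and in rpb2-10 it fell by 1.15 ± 0.10. In rpb2-10, 5 of the 7 arginine genes fell. Besides ARG4 and ARG7 these were ARG2, for the first enzyme of the acetylated route, at -0.88 ± 0.07, CPA1, for a subunit of the carbamoyl phosphate synthetase that serves arginine, also at -0.88 ± 0.08, and ARG8, for an aminotransferase of the acetylated route, at -0.35 ± 0.07.

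The genes that the ArgR complex represses in the presence of arginine, ARG1, ARG3 and ARG8, were spread among the rpb1-1 replicates. ARG3, which encodes ornithine carbamoyltransferase, read 9.64, 10.31 and 11.04 in rpb1-1, on both sides of the 10.14, 10.10 and 10.04 of WT1B. Its standard deviation (SD) in rpb1-1 was 0.70, the widest of the 59 genes in that group, and its uncalled difference of 0.24 became -0.12 without rpb1-1 replicate 3. The argininosuccinate synthetase gene ARG1 read 11.36, 11.64 and 12.01 in rpb1-1, with an SD of 0.33, and ARG8 10.44, 10.61 and 11.04, with an SD of 0.31. Spread of the size of ARG1 and ARG8 was not particular to these genes. The SD in rpb1-1 was 0.44 for SER3, 0.40 for MET14 and 0.39 for MET17. In rpb1S751F, ARG1 fell by 0.43 ± 0.15 (adjusted p = 0.0358), a call lost on leaving out any 1 of the 6 arrays, with adjusted p up to 0.107.

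Of the histidine genes, HIS4 fell in rpb1-1 and rpb2-10 and rose in rpb1S751F. Its enzyme catalyses several steps of the pathway. HIS4 (YCL030C) read 11.13, 11.15 and 11.17 in WT1B, 10.36, 10.20 and 9.76 in rpb1-1 and 11.66, 11.67 and 11.63 in rpb1S751F. In WT1A it read 10.42, 10.43 and 10.14, and in rpb2-10 9.04, 8.90 and 9.06. No arrays of a mutant overlapped the wild type. The differences were -1.04 ± 0.13 in rpb1-1 (adjusted p = 0.00026), 0.50 ± 0.13 in rpb1S751F (adjusted p = 0.0119) and -1.33 ± 0.08 in rpb2-10 (adjusted p = 2.38e-06).

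HIS5, for histidinol-phosphate aminotransferase, took the same 3 directions at -0.48 ± 0.10, 0.32 ± 0.10 and -0.63 ± 0.10. Its call in rpb1S751F was lost without WT1B replicate 1 or 2 or without rpb1S751F replicate 3 (adjusted p up to 0.0783). HIS1, for the ATP phosphoribosyltransferase that opens the pathway, fell in each mutant, with differences of -0.52 ± 0.11, -0.40 ± 0.11 and -0.84 ± 0.06. HIS7, for the synthase that forms the imidazole ring, rose by 0.35 ± 0.07 in rpb1S751F and fell by 0.22 ± 0.06 in rpb2-10. HIS6, for an isomerase of the middle of the pathway, fell by 0.65 ± 0.14 in rpb1-1 and, with no call, stood at -0.16 ± 0.14 in rpb1S751F and -0.02 ± 0.06 in rpb2-10.

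**Figure D3:**
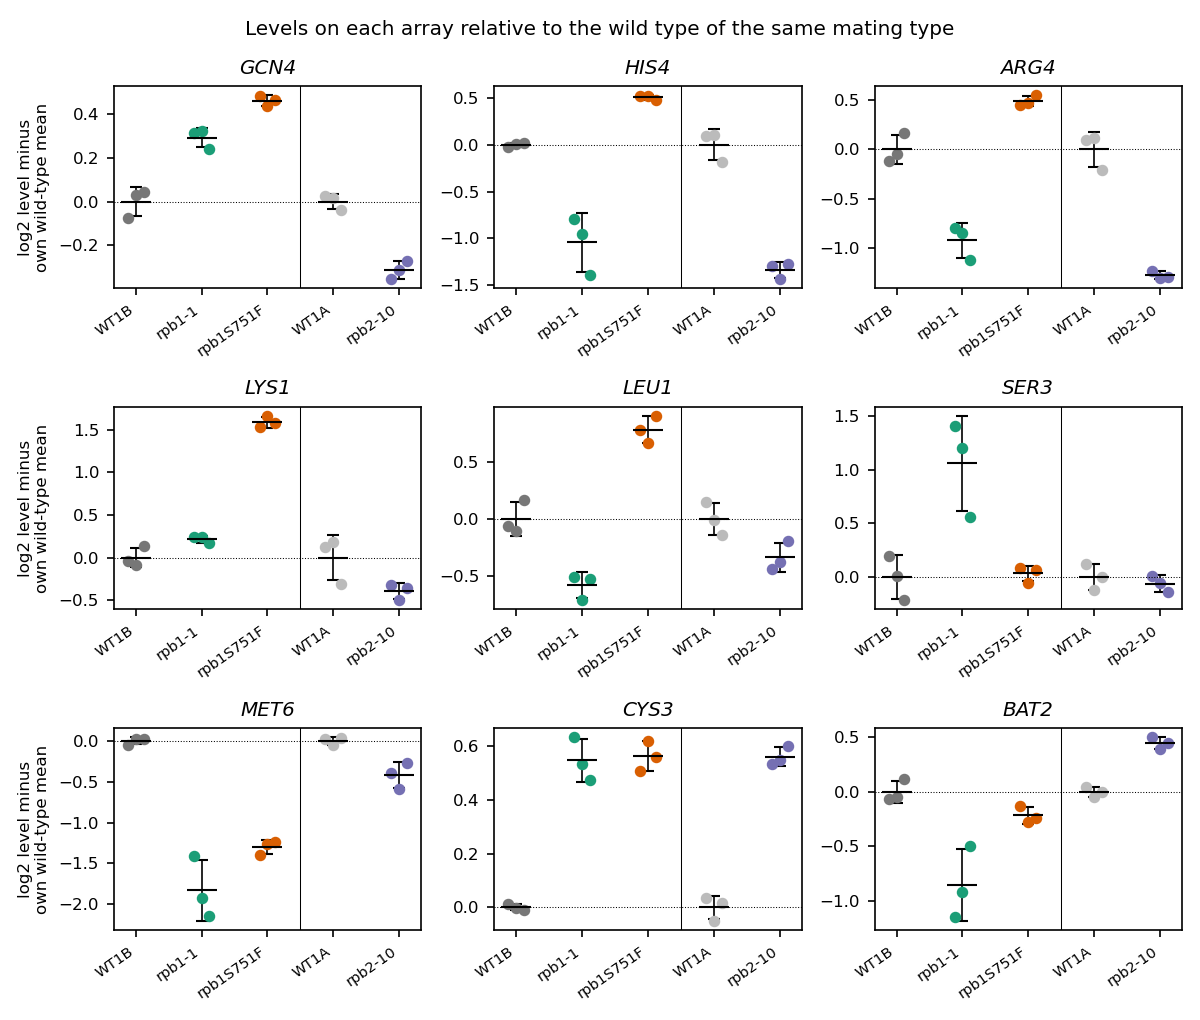
Log2 level on each array minus the mean of the wild type of the same mating type (y axis) for 9 genes, by group (x axis). Points are arrays, and bars show the mean ± SD of 3 arrays. HIS4, ARG4 and LEU1 lie below 0 in rpb1-1 and rpb2-10 and above 0 in rpb1S751F, and CYS3 lies above 0 in each mutant.

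In the leucine branch, LEU1 took the same directions. It encodes isopropylmalate isomerase. LEU1 (YGL009C) read 12.34, 12.29 and 12.56 in WT1B, 11.90, 11.69 and 11.88 in rpb1-1 and 13.18, 13.06 and 13.29 in rpb1S751F, with no overlap. It fell by 0.58 ± 0.10 in rpb1-1 (adjusted p = 0.00139) and rose by 0.78 ± 0.10 in rpb1S751F (adjusted p = 0.000296). In rpb2-10 it fell by 0.33 ± 0.09, from 11.31, 11.15 and 11.03 to 10.73, 10.79 and 10.98.

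Of the paralogous isopropylmalate synthases, which open the branch, LEU9 had a call in rpb1-1 and LEU4 in rpb1S751F. LEU4, the main isoenzyme, read 12.81, 12.81 and 12.67 in rpb1-1 against 12.62, 12.76 and 12.77 in WT1B, a difference of 0.04 ± 0.08 with a 95% interval from -0.15 to 0.24. LEU9 fell there, with a difference of -0.64 ± 0.10 (adjusted p = 0.000703). In rpb1S751F, LEU4 rose by 0.64 ± 0.08 and LEU9 stood at 0.18 ± 0.10, not called. In rpb2-10 both fell, with differences of -0.65 ± 0.07 and -0.52 ± 0.09.

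Isoleucine and valine share their enzymes from acetolactate onward, and 5 of the 7 genes fell in rpb1-1 and 5 in rpb2-10, while 3 rose and 1 fell in rpb1S751F. Of all tested genes 25.7% fell in rpb1-1 and 39.1% in rpb2-10, and in rpb1S751F 31.1% rose and 23.5% fell. The reductoisomerase gene ILV5 fell in rpb1-1 (-0.78 ± 0.11) and rpb2-10 (-0.93 ± 0.07), and was at 0.01 ± 0.11 in rpb1S751F. ILV3, for the dehydratase of the next step, fell in rpb1-1 (-0.72 ± 0.08), rose in rpb1S751F (0.49 ± 0.08) and fell in rpb2-10 (-0.24 ± 0.07). ILV1 encodes threonine deaminase, which commits threonine to isoleucine. It read 12.72, 12.73 and 12.66 in rpb1S751F against 11.85, 12.25 and 11.97 in WT1B, and rose by 0.68 ± 0.11, with no call in the other mutants. ILV6, for the regulatory subunit of acetolactate synthase, fell in rpb1-1 (-0.32 ± 0.06), rpb1S751F (-0.21 ± 0.06) and rpb2-10 (-0.33 ± 0.06). Its rpb1S751F call was lost without WT1B replicate 1 or 2 or without rpb1S751F replicate 3 (adjusted p up to 0.059). ILV2, for the catalytic subunit, fell by 0.45 ± 0.07 in rpb2-10 and had no call in the rpb1 mutants.

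The aminotransferases that complete the branched-chain amino acids changed in opposite directions in rpb2-10. BAT1 encodes the mitochondrial enzyme and BAT2 the cytosolic one. BAT1 fell in rpb1-1 (-0.62 ± 0.07) and rpb2-10 (-0.51 ± 0.05), and rose by 0.49 ± 0.07 in rpb1S751F. BAT2 (YJR148W) read 12.21, 12.23 and 12.39 in WT1B, 11.13, 11.36 and 11.78 in rpb1-1 and 12.14, 12.00 and 12.04 in rpb1S751F. The rpb1-1 arrays were spread, but each lay under the wild type, and the difference was -0.85 ± 0.15 (adjusted p = 0.00136). In rpb2-10 BAT2 rose, from 9.96, 9.86 and 9.91 to 10.41, 10.30 and 10.36, or by 0.45 ± 0.05 (adjusted p = 6.48e-05). In rpb1-1 both genes fell.

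Lysine is made through the α-aminoadipate route, whose last step, saccharopine to lysine, is catalysed by Lys1. LYS1 (YIR034C) showed the largest rise of the 59 genes in the 3 mutants. It read 11.59, 11.72 and 11.63 in rpb1S751F against 10.02, 9.97 and 10.19 in WT1B, a difference of 1.58 ± 0.08, or 3.00-fold (adjusted p = 2.77e-06). In rpb1-1 it read 10.30, 10.30 and 10.23, a rise of 0.22 ± 0.08 (adjusted p = 0.0407). The call of this rise was lost on leaving out WT1B replicate 1 or 2 or any 1 rpb1-1 array. That call was also lost in 1 fit of all 15 arrays, after median centring or further quantile normalization and with the replicate block. Over all settings its adjusted p reached 0.142. In rpb2-10 LYS1 fell by 0.39 ± 0.12 (adjusted p = 0.0164), a call lost without WT1A replicate 1 or 2 or rpb2-10 replicate 2 (adjusted p up to 0.0705).

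The enzyme of LYS9 catalyses the step before it, and the gene differed in pattern. It read 11.83, 11.81 and 11.80 in WT1B, 10.93, 11.08 and 10.91 in rpb1-1 and 12.20, 12.16 and 12.22 in rpb1S751F, differences of -0.84 ± 0.07 (adjusted p = 1.8e-05) and 0.38 ± 0.07 (adjusted p = 0.00152). In rpb2-10 it rose by 0.57 ± 0.11 (adjusted p = 0.00126). The genes of 2 consecutive enzymes thus changed in opposite directions in rpb2-10. Of the earlier steps, the homoaconitase gene LYS4 fell in rpb1-1 (-0.86 ± 0.11) and rpb2-10 (-0.61 ± 0.09). LYS12, for homoisocitrate dehydrogenase, fell by 0.84 ± 0.08 in rpb1-1 and was at -0.14 ± 0.08 in rpb2-10. LYS2, for α-aminoadipate reductase, fell in rpb1-1 (-0.35 ± 0.07) and rpb2-10 (-0.49 ± 0.09). In rpb1S751F, LYS4, LYS12 and LYS2 had no call, at -0.03, -0.01 and 0.15.

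The homocitrate synthases that open the route are encoded by LYS20 and LYS21. LYS20 (YDL182W) read 12.33, 12.27 and 12.11 in WT1B, 12.49, 12.36 and 12.63 in rpb1-1 and 11.74, 11.49 and 11.46 in rpb1S751F. It fell by 0.68 ± 0.11 in rpb1S751F (adjusted p = 0.000821), where LYS1 rose, and was not called in rpb1-1 at 0.26 ± 0.11. LYS21 fell in rpb1-1, with a difference of -0.63 ± 0.17. Its difference of -0.45 ± 0.17 in rpb1S751F (adjusted p = 0.0495) stood close to the threshold. Without rpb1S751F replicate 2 it was -0.28 (adjusted p = 0.152), and the call was also lost without any 1 WT1B array, without rpb1S751F replicate 3 and after median centring. In rpb2-10, LYS20 stood at 0.00 ± 0.10 and LYS21 at -0.23 ± 0.10, neither of them called.

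Aromatic synthesis starts with DAHP synthase, encoded by ARO3 and ARO4, and leads through chorismate to tryptophan, phenylalanine and tyrosine. ARO4 fell in each mutant, with differences of -0.95 ± 0.09 in rpb1-1, -0.42 ± 0.09 in rpb1S751F and -0.61 ± 0.05 in rpb2-10. It read 12.69, 12.67 and 12.68 in WT1B, and 11.89, 11.65 and 11.65 in rpb1-1. ARO3 fell in rpb1-1 (-0.67 ± 0.09) and rpb2-10 (-1.06 ± 0.08, adjusted p = 7.39e-06), and was at 0.01 ± 0.09 in rpb1S751F. ARO1, whose multifunctional enzyme carries out the middle of the chorismate route, fell by 0.75 ± 0.08 in rpb2-10 and was not called in the rpb1 mutants. The chorismate synthase gene ARO2 fell in rpb1-1 (-0.33 ± 0.08) and rpb1S751F (-0.25 ± 0.08). The second of these calls was lost without WT1B replicate 1 or 2 or rpb1S751F replicate 2 or 3 (adjusted p up to 0.112).

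In the tryptophan branch, 3 of 4 genes rose in rpb1-1 and 3 in rpb1S751F. The whole aromatic group of 9 genes had 3 rises and 3 falls in rpb1-1, and 4 rises and 2 falls in rpb1S751F. Of all tested genes 28.1% rose and 25.7% fell in rpb1-1, and 31.1% rose and 23.5% fell in rpb1S751F. TRP5, for tryptophan synthase, read 12.17, 12.21 and 12.14 in WT1B, 12.68, 12.61 and 12.50 in rpb1-1 and 12.63, 12.70 and 12.67 in rpb1S751F. It rose by 0.42 ± 0.07 and 0.49 ± 0.07. TRP2 encodes anthranilate synthase, the entry to the branch, and rose by 0.30 ± 0.09 in rpb1-1 and by 0.67 ± 0.09 in rpb1S751F. TRP3, for its partner subunit, rose by 0.24 ± 0.08 and 0.40 ± 0.08. In rpb1-1 the call of TRP2 was lost without WT1B replicate 1 or rpb1-1 replicate 1 (adjusted p up to 0.0734). That of TRP3 was lost without any 1 WT1B array or rpb1-1 replicate 1 or 3 and after median centring (adjusted p up to 0.103). In rpb2-10 TRP5 stood at 0.15 ± 0.06 (adjusted p = 0.0436). This call was lost without WT1A or rpb2-10 replicate 1 or 3, after quantile normalization and with the replicate block (adjusted p up to 0.145). TRP4, for the step after anthranilate, was not called in the rpb1 mutants and fell by 0.27 ± 0.06 in rpb2-10. The aromatic aminotransferase gene ARO8 rose by 0.57 ± 0.08 in rpb1S751F.

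Serine is made from 3-phosphoglycerate, and the dehydrogenase of the first step has the isoenzymes Ser3 and Ser33. SER3 (YER081W) rose in rpb1-1. It read 12.26, 12.06 and 11.42 there against 11.05, 10.87 and 10.65 in WT1B, 10.94, 10.81 and 10.92 in rpb1S751F, 8.64, 8.40 and 8.52 in WT1A and 8.54, 8.47 and 8.38 in rpb2-10. Each rpb1-1 array lay above the wild type, over a wide range, and the difference was 1.06 ± 0.20, or 2.08-fold (adjusted p = 0.0021). In the other mutants SER3 overlapped the wild type, at 0.03 ± 0.20 (95% interval from -0.42 to 0.49) and -0.06 ± 0.07. SER33 fell in rpb1-1 (-0.31 ± 0.09) and rpb2-10 (-0.16 ± 0.05). The first call was lost without WT1B replicate 1 or 3 or rpb1-1 replicate 2 or 3 (adjusted p up to 0.0778). The second was lost without WT1A replicate 1 or 3 or rpb2-10 replicate 2. It was also lost in 1 fit of all 15 arrays and after median centring (adjusted p up to 0.141 over all settings).

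SER1, the aminotransferase of the next step, rose in rpb1S751F and rpb2-10. It read 12.23, 12.28 and 12.22 in rpb1S751F against 11.52, 11.45 and 11.61 in WT1B, and 10.08, 9.99 and 10.08 in rpb2-10 against 9.24, 9.25 and 9.30 in WT1A. The rises were 0.72 ± 0.07 (adjusted p = 5.59e-05) and 0.79 ± 0.05 (adjusted p = 2.37e-06), and rpb1-1 stood at -0.08 ± 0.07. SER2, for the phosphatase that yields serine, rose by 0.35 ± 0.05 in rpb2-10. SHM2, for the hydroxymethyltransferase that turns serine into glycine in the cytosol, rose by 0.60 ± 0.14 in rpb1S751F. In rpb2-10 it fell by 0.15 ± 0.05. That call was lost without rpb2-10 replicate 1 or 2, in 1 fit of all arrays and after median centring (adjusted p up to 0.271).

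Threonine comes from aspartate through homoserine, which also feeds methionine. HOM3, for the aspartate kinase of the first step, fell in rpb1-1 (-0.58 ± 0.15) and rpb2-10 (-0.72 ± 0.07). It read 10.39, 10.31 and 10.16 in WT1A and 9.61, 9.49 and 9.58 in rpb2-10. HOM2, for the next dehydrogenase, fell by 0.63 ± 0.08 in rpb1-1. The call of its difference of -0.17 ± 0.07 in rpb2-10 was lost on leaving out any 1 array except WT1A replicate 3. That call was also lost in 1 fit of all 15 arrays, after median centring or further quantile normalization and with the replicate block. Over all settings its adjusted p reached 0.139. HOM6, for homoserine dehydrogenase, rose by 0.24 ± 0.06, 0.37 ± 0.06 and 0.18 ± 0.05 in rpb1-1, rpb1S751F and rpb2-10. THR4, for threonine synthase, rose by 0.32 ± 0.08 in rpb1S751F, and the homoserine kinase gene THR1 was not called in any mutant.

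Among the sulphur genes, the 5 of sulphate assimilation and methionine synthesis fell in rpb1-1 and in rpb2-10, and 3 of the 5 fell in rpb1S751F. CYS3, for the last step to cysteine, rose in each mutant. MET6 (YER091C), for the methionine synthase that methylates homocysteine, fell the most of these in both rpb1 mutants. It read 12.70, 12.78 and 12.77 in WT1B, 11.33, 10.83 and 10.60 in rpb1-1 and 11.35, 11.49 and 11.51 in rpb1S751F. The differences were -1.83 ± 0.16, or 3.55-fold (adjusted p = 3.17e-05), and -1.30 ± 0.16 (adjusted p = 0.00023). In rpb2-10 MET6 read 10.55, 10.35 and 10.67 against 10.96, 10.89 and 10.97, a difference of -0.42 ± 0.08.

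MET3, MET14 and MET16 encode the first enzymes of sulphate assimilation, in this order: ATP sulfurylase, APS kinase and PAPS reductase. MET3 fell in rpb1-1 (-1.29 ± 0.16) and rpb2-10 (-0.79 ± 0.07) and was at -0.36 ± 0.16 in rpb1S751F, not called. MET14 read 10.63, 10.03 and 9.87 in rpb1-1 and 10.97, 10.69 and 10.88 in rpb1S751F against 11.69, 11.54 and 11.71 in WT1B, differences of -1.47 ± 0.18 and -0.80 ± 0.18. In rpb2-10 it fell by 0.71 ± 0.07. MET16 fell in rpb1-1 (-0.64 ± 0.18), rpb1S751F (-0.68 ± 0.18) and rpb2-10 (-1.10 ± 0.06), where it read 6.15, 6.16 and 6.0 against 7.20, 7.16 and 7.23. MET17 joins the assimilated sulphide to the homoserine carbon chain as homocysteine. It fell in rpb1-1 (-0.64 ± 0.18) and rpb2-10 (-0.27 ± 0.07), where its call was lost in 1 fit of all 15 arrays (adjusted p = 0.133).

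CYS3 (YAL012W), for the lyase that releases cysteine from cystathionine, rose by nearly the same amount in each mutant. It read 12.90, 12.88 and 12.87 in WT1B, 13.52, 13.42 and 13.36 in rpb1-1 and 13.39, 13.50 and 13.45 in rpb1S751F. In the a strains it read 10.57, 10.48 and 10.55 in WT1A and 11.07, 11.08 and 11.14 in rpb2-10. The rises were 0.55 ± 0.07, 0.56 ± 0.07 and 0.56 ± 0.05, with no overlap of mutant and wild type. The rpb1-1 and rpb1S751F effects differed from that of rpb2-10 by -0.01 ± 0.08 and 0.00 ± 0.08. CYS4, for the synthase that makes cystathionine, was at 0.12 ± 0.09 and 0.10 ± 0.09 in the rpb1 mutants and at 0.14 ± 0.05 in rpb2-10 (adjusted p = 0.0429). Its rpb2-10 call was lost without WT1A replicate 2 or 3 or any 1 rpb2-10 array. That call was also lost in 1 fit of all 15 arrays, after further quantile normalization and with the replicate block. Over all settings its adjusted p reached 0.153.

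**Figure D4:**
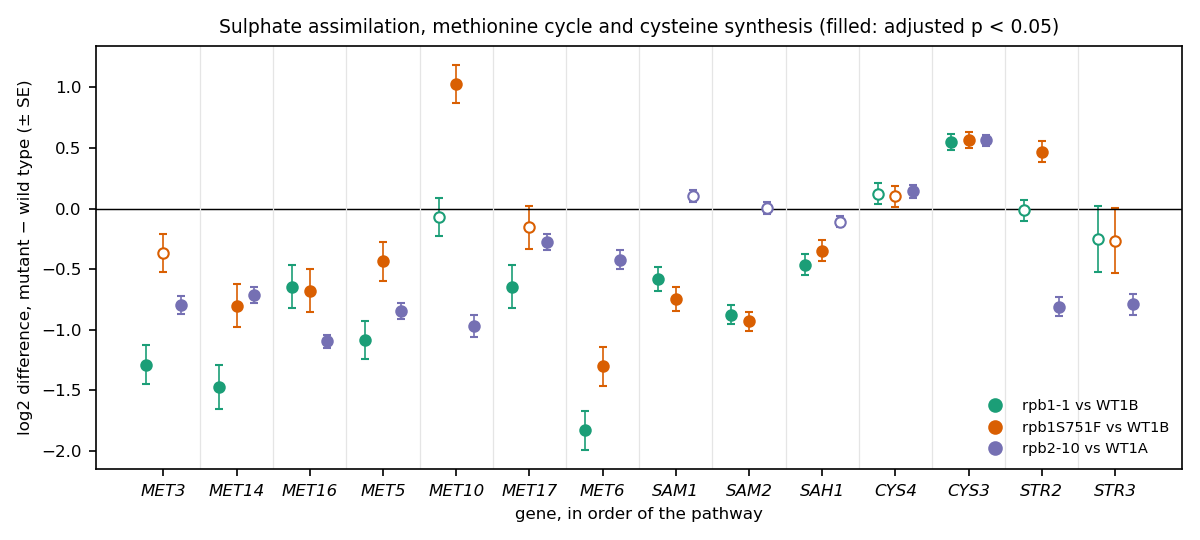
Log2 difference from the own wild type ± SE (y axis) for 14 genes of sulphur amino acid synthesis (x axis, in pathway order), with filled points for an adjusted p below 0.05. The 7 genes outside the 59 (MET5, MET10, SAM1, SAM2, SAH1, STR2 and STR3) come from the list of other synthesis genes, and CYS3 lies near 0.55 in each mutant.

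Further genes of the pathway, outside the 59, were also measured. MET5 and MET10 encode the subunits of sulphite reductase, between MET16 and MET17. MET5 fell in rpb1-1 (-1.08), rpb1S751F (-0.43) and rpb2-10 (-0.85). MET10 was at -0.07 in rpb1-1 with no call, rose by 1.03 in rpb1S751F and fell by 0.97 in rpb2-10. The S-adenosylmethionine synthetase genes SAM1 and SAM2 fell in rpb1-1 (-0.58 and -0.87) and in rpb1S751F (-0.74 and -0.93), and had no call in rpb2-10, at 0.10 and 0.00. MET5, MET10, SAM1 and SAM2 were singled out after their values were seen. Among the further sulphur genes measured, MET8, MET22 and SAH1 also fell in rpb1-1. MET1, MET2, MET12, MET13, STR2 and STR3 had no call there.

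The paralogous asparagine synthetases ASN1 and ASN2 changed in opposite directions in rpb2-10. ASN1 read 11.12, 11.19 and 11.27 there against 11.93, 11.97 and 11.84 in WT1A, a difference of -0.72 ± 0.06 (adjusted p = 8.79e-06). ASN2 read 10.64, 10.59 and 10.73 against 10.50, 10.44 and 10.31, a rise of 0.23 ± 0.06 (adjusted p = 0.00973). In rpb1-1 ASN2 rose by 0.35 ± 0.09 and ASN1 was at -0.08 ± 0.07, and in rpb1S751F ASN1 fell by 0.33 ± 0.07 and ASN2 was at 0.14 ± 0.09. PRO1, for the kinase that starts proline synthesis, was at 0.00 ± 0.12, 0.32 ± 0.12 and -0.08 ± 0.06 and was not called.

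The rpb1 mutants share the WT1B arrays, so their difference was tested directly, array group against array group. Of the 59 genes, 32 were higher in rpb1S751F than in rpb1-1, or 54.2% where 25.3% of all genes were, and 3 were lower, or 5.08% against 22.8%. These 35 are 59.3% of the 59 genes, where 48.0% of all genes differed. The median difference over the 59 was 0.36, and over all tested genes 0.00. Genes higher in rpb1S751F came from every group of enzymes except asparagine and proline: 4 of 5 for histidine, 3 of 3 for leucine, 5 of 7 for isoleucine and valine, 5 of 7 for lysine, 5 of 9 for aromatic and 4 of 7 for sulphur. Arginine, serine and threonine had 2 each. The 3 lower genes were LYS20, SER3 and ASN1. The higher calls of HIS6, HIS7, TRP4, THR1, MET6 and MET17 were each lost on leaving out at least 1 array (adjusted p up to 0.149), and MET17 moved from 0.49 to 0.32 without rpb1-1 replicate 3. The lower call of ASN1 was lost without rpb1-1 replicate 1.

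HIS4 had the largest difference between the alleles, 1.55 ± 0.13, or 2.92-fold (adjusted p = 3.31e-05, 95% interval from 1.24 to 1.85). ARG4 followed at 1.41 ± 0.11, then ARG7 at 1.38 ± 0.13, LYS1 at 1.37 ± 0.08, LEU1 at 1.35 ± 0.10 and LYS9 at 1.22 ± 0.07. For each of these 6 genes the arrays of the alleles did not overlap. In the opposite direction, SER3 was lower in rpb1S751F, at -1.02 ± 0.20, and LYS20 at -0.93 ± 0.11. ASN1 was at -0.25 ± 0.07 (adjusted p = 0.0152), a call lost without rpb1-1 replicate 1 (adjusted p = 0.061). GCN4 was at 0.17 ± 0.06 with an adjusted p of 0.0548. CYS3 was at 0.02 ± 0.07, with a 95% interval of the difference from -0.14 to 0.17, and MET16 at -0.03 ± 0.18, with an interval from -0.44 to 0.37.

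**Figure D5:**
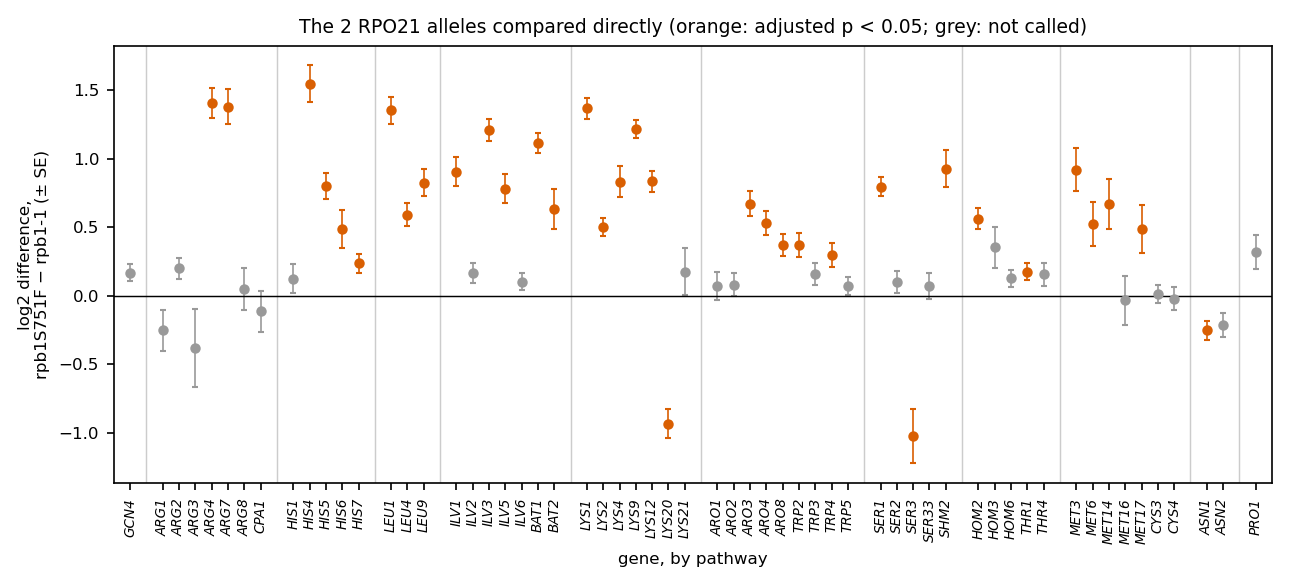
Log2 difference of rpb1S751F minus rpb1-1 ± SE (y axis) for each of the 59 genes (x axis, by pathway), with orange for an adjusted p below 0.05 and grey for no call. Of the 35 orange points, 32 lie above 0 and LYS20, SER3 and ASN1 lie below.

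The rpb1 mutants and rpb2-10 have no arrays in common, so their calls can be set against each other. Of the 29 genes that fell in rpb1-1, 23 also fell in rpb2-10, which is 79.3% of the first list and 65.7% of the 35 of the second. Among these 23, the calls of SER33 in both mutants and of HOM2 and MET17 in rpb2-10 were lost under at least 1 alternative. Over all tested genes 607 fell in both, or 43.3% of the genes lower in rpb1-1 and 28.5% of those lower in rpb2-10. BAT2 and LYS9 fell in rpb1-1 and rose in rpb2-10, and GCN4 and LYS1 did the reverse. Of these genes LYS1 alone had calls lost under an alternative, in both mutants. Of the 22 genes that rose in rpb1S751F, 12 fell in rpb2-10, which is 54.5% of the first list and 34.3% of the second, where the shares over all tested genes were 27.4% and 21.8%. These were GCN4, ARG2, ARG4, HIS4, HIS5, HIS7, LEU1, LEU4, ILV3, BAT1, LYS1 and SHM2. The rises of ARG2 (0.22, adjusted p up to 0.112) and HIS5 in rpb1S751F and the falls of LYS1 and SHM2 in rpb2-10 were each lost on leaving out at least 1 array. For 0 of the 11 genes that fell in rpb1S751F was there a rise in rpb2-10, a combination met by 20.2% of all genes lower in rpb1S751F.

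The difference between the effects, each taken against its own wild type, was tested in a fit of all 15 arrays. The effect of rpb1S751F differed from that of rpb2-10 for 35 of the 59 genes (59.3%, against 51.7% of all genes), 32 of them more positive in rpb1S751F (54.2% against 30.7% of all genes) and 3 more negative (5.08% against 21.0%), namely BAT2, LYS20 and MET6. The largest was LYS1 at 1.98 ± 0.15 (adjusted p = 4.67e-07), before HIS4 at 1.84 ± 0.17 and ARG4 at 1.76 ± 0.15. The effect of rpb1-1 differed from that of rpb2-10 for 27 genes (45.8% against 56.7%), 14 more positive (23.7% against 31.1%) and 13 more negative (22.0% against 25.6%). For HIS4 and ARG4 this difference was 0.29 ± 0.17 (adjusted p = 0.175) and 0.35 ± 0.15 (adjusted p = 0.0579), so that the falls of these genes in rpb1-1 and rpb2-10 were not shown to differ. LYS9, at -1.41 ± 0.13, and BAT2, at -1.30 ± 0.17, differed in the other direction.

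The measured levels come from genes of very unequal length, from 609 bases of coding sequence for MET14 to 4767 for ARO1. The 2 longest, ARO1 and LYS2, were at -0.10 and -0.35 in rpb1-1, -0.02 and 0.15 in rpb1S751F and -0.75 and -0.49 in rpb2-10. The shortest, MET14, was at -1.47, -0.80 and -0.71 in the same order of mutants. HIS6 and MET16 follow it with 786 bases each. HIS6 was at -0.65, -0.16 and -0.02, and MET16 at -0.64, -0.68 and -1.10. A relation of these differences to length was not tested.

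A list of further genes of amino acid synthesis had 31 genes that were analysed here. In rpb1-1 5 rose and 12 fell (median -0.09), in rpb1S751F 14 rose and 9 fell (median 0.22) and in rpb2-10 3 rose and 20 fell (median -0.35). The shares of all tested genes that rose and fell were 28.1% and 25.7%, 31.1% and 23.5%, and 32.0% and 39.1% in the same order of mutants. In rpb1-1 the largest changes were MET22, for a phosphatase that clears a by-product of sulphate assimilation, at -1.53, and ARO9, for an inducible aromatic aminotransferase, at 1.47. In rpb1S751F they were GDH3, for a glutamate dehydrogenase that makes glutamate, at 1.71, and again ARO9 at 1.37. In rpb2-10 they were AGX1, for an aminotransferase that makes glycine from glyoxylate, at -1.19, and MET2, for homoserine acetyltransferase, at -1.18. Directly compared, 15 of the 31 were higher in rpb1S751F than in rpb1-1 and 1 was lower, where 25.3% and 22.8% of all genes were, with MET8, for an enzyme of sirohaem synthesis, at 1.38 and GDH3 at 1.34.

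Regulators of the pathways were mostly lower in rpb2-10, where 16 of 25 fell and 1 rose (median -0.25), against 39.1% and 32.0% of all genes. In rpb1-1 8 rose and 1 fell (median 0.06), against 28.1% and 25.7%, and in rpb1S751F 5 rose and 8 fell (median -0.01), against 31.1% and 23.5%. The 1 that fell in rpb1-1 was ARG80, a subunit gene of the ArgR complex, at -2.15 ± 0.13. It was at 0.15 with no call in rpb1S751F and fell by 1.11 in rpb2-10, and the direct difference between the alleles was 2.30. ARG82, for an inositol polyphosphate kinase that stabilises ArgR, differed between the alleles by -1.51, lower in rpb1S751F. MET32, for a DNA-binding partner of Met4, rose by 1.22 in rpb1-1, and MET28, for another cofactor of Met4, rose by 1.13 in rpb1S751F. ARO80, the activator gene of ARO9, rose by 1.00 in rpb1S751F, and LYS14 fell by 0.91 in rpb2-10. GCN2, the kinase gene upstream of GCN4, rose by 0.72 in rpb1-1 and by 0.64 in rpb1S751F and was at 0.06 in rpb2-10.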

How the data were processed

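Gene expression was measured on 15 one-colour Affymetrix Yeast Genome 2.0 arrays in 5 groups of 3, grouped by the labels. The deposited values are log2 levels per probe set, and RMA and limma are named per the submitters' processing notes, without versions. RMA quantile-normalizes arrays and so hides a shift shared by most genes. The scales of the α and a arrays differ, so the sets appear to have been normalized apart. The file holds 10928 probe sets, of which 5498 named 1 yeast gene. The brightest over all arrays was kept per gene, with names from the platform annotation, 12 of them updated through a RefSeq gene table of assembly R64, which left 5449 genes. None of the 59 genes had a second probe set or probes shared with other sequences. No genome build was named in the files, so coordinates are not given, and no sequences of these genes were at hand.

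Differences were computed with limma 3.58.1 in R 4.3.3 (lmFit, eBayes) within the 9 α arrays and within the 6 a arrays, since replicate spread differed: the median SD of a gene was 0.113 to 0.125 in the α groups and 0.0657 to 0.0664 in the a groups. Differences of effects used all 15 arrays. Tests were two-sided, with Benjamini-Hochberg adjustment over 5449 genes and a threshold of 0.05. On simulated data for these 5449 genes, the fit recovered 68% of 100 genes changed by 0.5 and 97% of 100 changed by 1 for rpb1-1, and 99% and 100% for rpb2-10. No other genes were changed there, while in the data 53.8% of tested genes were called in rpb1-1 and 71.2% in rpb2-10. The adjustment depends on that share, so these rates do not give the recovery of the calls reported here. The number of arrays limits the precision. The p-values measure the spread between arrays labelled biological replicates. Alternatives were 1 fit of all arrays, median centring, further quantile normalization, leaving out the dimmest 20% of genes, the mean over probe sets, leaving out shared probes, a variance trend, a replicate block and leaving out each array.

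The 59 genes, their pathways and the further lists were chosen with earlier results of these data known, so no list was tested as a set. Named are GCN4; per pathway and comparison with the wild type, the up to 2 called genes of largest difference whose arrays do not overlap; the paralog pairs; the 6 largest differences between the alleles; and up to 2 called genes of each further list. Genes named beyond this rule were chosen after their values were seen.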

Additional observations from a re-analysis of the deposited data

Results flagged for a closer look

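The results given here are differences between the effects of mutations in the different mating types: the log2 difference of an rpb1 mutant from WT1B minus that of rpb2-10 from WT1A. Each was past an adjusted p of 0.05 over the 5449 tested genes in the limma fit of all 15 arrays, which is the test of the difference itself. Mating type, array set and mutated subunit cannot be told apart in these differences.

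For rpb1-1 against rpb2-10, 27 of the 59 genes differed, or 45.8%, where 56.7% of all tested genes did. The values in brackets are these differences of effects. For the regulator, the effect of rpb1-1 was more positive for GCN4 (0.61). In arginine synthesis, the effect of rpb1-1 was more positive for ARG2 (0.90) and CPA1 (0.68). Among genes of histidine synthesis, the effect of rpb1-1 was more positive for HIS1 (0.32) and HIS7 (0.33) and more negative for HIS6 (-0.63). In branched-chain synthesis, the effect of rpb1-1 was more positive for LEU4 (0.70) and ILV2 (0.35) and more negative for ILV3 (-0.48) and BAT2 (-1.30). Among genes of lysine synthesis, the effect of rpb1-1 was more positive for LYS1 (0.61) and more negative for LYS9 (-1.41) and LYS12 (-0.70). In aromatic synthesis, the effect of rpb1-1 was more positive for ARO1 (0.65), ARO3 (0.39), TRP3 (0.34) and TRP5 (0.27) and more negative for ARO2 (-0.30) and ARO4 (-0.34). Among genes of serine and glycine synthesis, the effect of rpb1-1 was more positive for SER3 (1.12) and more negative for SER1 (-0.87) and SER2 (-0.25). In threonine synthesis, the effect of rpb1-1 was more negative for HOM2 (-0.45). Among genes of sulphur amino acid synthesis, the effect of rpb1-1 was more negative for MET3 (-0.49), MET6 (-1.41) and MET14 (-0.76). In asparagine synthesis, the effect of rpb1-1 was more positive for ASN1 (0.64).

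For rpb1S751F against rpb2-10, 35 of the 59 genes differed, or 59.3%, where 51.7% of all tested genes did. For the regulator, the effect of rpb1S751F was more positive for GCN4 (0.78). In arginine synthesis, the effect of rpb1S751F was more positive for ARG2 (1.10), ARG4 (1.76), ARG7 (1.09) and CPA1 (0.57). Among genes of histidine synthesis, the effect of rpb1S751F was more positive for HIS1 (0.44), HIS4 (1.84), HIS5 (0.95) and HIS7 (0.57). In branched-chain synthesis, the effect of rpb1S751F was more positive for LEU1 (1.11), LEU4 (1.29), LEU9 (0.70), ILV1 (0.80), ILV2 (0.51), ILV3 (0.73), ILV5 (0.93) and BAT1 (1.00) and more negative for BAT2 (-0.66). Among genes of lysine synthesis, the effect of rpb1S751F was more positive for LYS1 (1.98), LYS2 (0.64) and LYS4 (0.58) and more negative for LYS20 (-0.68). In aromatic synthesis, the effect of rpb1S751F was more positive for ARO1 (0.72), ARO3 (1.06), ARO8 (0.50), TRP2 (0.60), TRP3 (0.51), TRP4 (0.37) and TRP5 (0.34). Among genes of serine and glycine synthesis, the effect of rpb1S751F was more positive for SHM2 (0.76). In threonine synthesis, the effect of rpb1S751F was more positive for HOM3 (0.50) and HOM6 (0.19). Among genes of sulphur amino acid synthesis, the effect of rpb1S751F was more negative for MET6 (-0.88). In asparagine synthesis, the effect of rpb1S751F was more positive for ASN1 (0.39). Among genes of proline synthesis, the effect of rpb1S751F was more positive for PRO1 (0.40).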

How the results depend on the processing

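Of the calls against the wild type, 28 of 29 falls and 6 of 9 rises in rpb1-1, 7 of 11 falls and 20 of 22 rises in rpb1S751F, and 30 of 35 falls and 7 of 9 rises in rpb2-10 were made under every alternative run. Between the alleles, 26 of 32 higher and 2 of 3 lower calls were. Some alternatives left the values of the 59 genes unchanged: the mean over probe sets, leaving out shared probes and leaving out the dimmest genes. These settings could alter a call only through the other genes tested. Leaving out 1 array at a time gave 6 to 9 rises and 28 to 30 falls in rpb1-1, 20 to 22 rises and 7 to 11 falls in rpb1S751F (7 without WT1B replicate 1, WT1B replicate 2 or rpb1S751F replicate 3), 7 to 8 rises and 31 to 37 falls in rpb2-10, and 26 to 32 higher and 3 to 4 lower genes between the alleles. The median over the 59 genes then ranged from -0.33 to -0.25 in rpb1-1, from 0.05 to 0.13 in rpb1S751F, from -0.31 to -0.22 in rpb2-10 and from 0.24 to 0.41 between the alleles. The values nearest 0 were -0.25 in rpb1-1 without WT1B replicate 3 and, without rpb1S751F replicate 1, 0.05 in rpb1S751F and 0.24 between the alleles. Genes with differing effects numbered 22 to 29 for rpb1-1 and 31 to 36 for rpb1S751F, each against rpb2-10.

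Under other settings, calls were lost in the 1 fit of all arrays (LYS1 in rpb1-1 and SER33, SHM2, HOM2, MET17 and CYS4 in rpb2-10), after median centring (LYS1 and TRP3 in rpb1-1, LYS21 in rpb1S751F and SER33, SHM2 and HOM2 in rpb2-10), after further quantile normalization (LYS1 in rpb1-1 and TRP5, HOM2 and CYS4 in rpb2-10) and with the replicate block (the same as after quantile normalization, and MET17 between the alleles).

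Under at least 1 alternative the direction turned for 5 uncalled differences in rpb1-1, 7 in rpb1S751F, 8 in rpb2-10 and 6 between the alleles, and for 0 of the called ones. ARG3 in rpb1-1 went from 0.24 to -0.12 without rpb1-1 replicate 3. LEU4 in rpb1-1 was -0.0134 after further quantile normalization and ranged from -0.00232 to 0.0923 over the settings that leave out an array. ARO3 in rpb1S751F was -0.00194 after median centring, -0.0134 after quantile normalization and from -0.0667 to 0.0571 without 1 array, at -0.0406 without WT1B replicate 3. SER3 there was -0.0711 without WT1B replicate 3. In rpb2-10, LYS20 was -0.0852 after quantile normalization and from -0.116 to 0.0974 without 1 array, at -0.0485 without rpb2-10 replicate 3. SER3 was 0.00572 after median centring. The cause was not tested.

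Groups share replicate numbers, and deviations from the group means of same-numbered arrays correlated at -0.31 to 0.50 in the α set (median 0.32, against -0.19 between other numbers) and at -0.24 to -0.02 in the a set. Since pairs in both sets lay below 0, and WT1B replicate 3 correlated most with rpb1-1 replicate 2 (0.55), the numbers were not taken as pairs. Between other numbers the correlations in the α set ran from -0.60 to 0.55. Deviations were thus shared by α arrays of different groups, while the main fit takes the arrays as independent. The effect on its p-values was not tested. With the replicate block, 8 genes rose and 30 fell in rpb1-1, 24 rose and 11 fell in rpb1S751F, and 7 rose and 34 fell in rpb2-10.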

Other observations

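Genes listed under amino acid breakdown rose together in rpb1S751F, where 11 of 11 were called higher, against 31.1% of all tested genes. Their median difference was 0.74, with differences from 0.34 to 1.32. In rpb1-1 6 rose and 2 fell (median 0.41), and in rpb2-10 5 rose and 5 fell (median 0.03). Of all tested genes 28.1% rose and 25.7% fell in rpb1-1, 31.1% rose and 23.5% fell in rpb1S751F, and 32.0% rose and 39.1% fell in rpb2-10, and the counts of the lists that follow are to be read against these shares. GCV1 and GCV2, for subunits of the glycine decarboxylase, rose in rpb1-1 (1.68 and 1.16) and in rpb1S751F (1.31 and 1.32), while in rpb2-10 GCV1 was at 0.03 with no call and GCV2 at -0.30. The proline oxidase gene PUT1 fell by 2.61 in rpb2-10 and rose by 0.59 in rpb1S751F. CHA1, for the deaminase of serine and threonine, was at -1.11 in rpb1-1, 0.51 in rpb1S751F and -2.0 in rpb2-10, each called. DLD3 was higher in rpb1S751F than in rpb1-1 by 1.41.

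Of 22 genes for amino acid permeases and their sensing pathway, 8 rose and 5 fell in rpb1-1, 6 rose and 5 fell in rpb1S751F, and 6 rose and 9 fell in rpb2-10. As shares of the list, these counts lay near those of all genes. PUT4, the proline permease gene, rose in rpb1-1 and rpb1S751F (2.12 and 2.15) and fell by 2.07 in rpb2-10. The S-adenosylmethionine permease gene SAM3 was at -1.92 in rpb1S751F and at 1.12 in rpb2-10. AGP1, for a permease of broad range, fell by 1.22 in rpb1-1, AGP3 was 0.95 higher in rpb1S751F than in rpb1-1, and ALP1, for a basic amino acid permease, rose by 1.84 in rpb2-10. Of 19 genes for cytosolic aminoacyl-tRNA synthetases, which charge tRNAs with amino acids, 3 rose and 5 fell in rpb1-1, 8 rose and 1 fell in rpb1S751F, and 5 rose and 1 fell in rpb2-10. The 5 that fell in rpb1-1 are a share near that of all genes. Their differences were small: the glutaminyl-tRNA synthetase gene GLN4 was at -0.51 in rpb1-1 and -0.48 in rpb1S751F, ALA1 at -0.42 in rpb1-1, HTS1 at 0.46 in rpb1S751F, and MES1 at -0.33 and FRS2 at 0.26 in rpb2-10.

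After subtraction of each array's median, LYS2 was 2.26 higher in WT1A (mean 2.76, SD 0.14) than in WT1B (mean 0.50, SD 0.02), where the median over the 59 genes was 0.22 and over all tested genes 0.03. HIS4 was 1.42 higher and MET14 was lower by 0.91 on the same scale. These wild types differ in array set and in mating type, and the differences were not tested.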
